A study of Homo sapiens with 2 samples.

Results

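The HOXB cluster is a run of 10 homeobox genes on chromosome 17, HOXB1 to HOXB9 and HOXB13, taken here as 10 of 20162 protein-coding genes of the GENCODE annotation. The members were chosen by name, and the data taken for them were all open-chromatin peaks within 3 kb of their transcription start sites (TSSs) and all peaks between the outermost members, which gave 56 of 114060 DMSO peaks and 53 of 161184 MAK683 peaks. The cells were G401, an established malignant rhabdoid tumor line of the kidney that is deficient in SMARCB1, a subunit of the SWI/SNF chromatin remodeling complex. One culture received the solvent DMSO and the other received MAK683, both for 3 days, and the series gives the MAK683 dose as 3 μM. MAK683 binds EED, the reader subunit of PRC2 (Polycomb repressive complex 2), and blocks methylation of histone H3 on lysine 27. Open chromatin was mapped with ATAC-seq, which uses the transposase Tn5 to cut and tag accessible DNA, so that sequenced ends collect at open sites. The comparison addresses whether chromatin opening at the HOXB genes differed after PRC2 was blocked.

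HOX genes encode homeodomain transcription factors that pattern the head-to-tail axis of the embryo, and their order along the chromosome follows the order in which they are used, with HOXB1 acting furthest toward the head and HOXB13 furthest toward the tail. PRC2 and its mark, trimethylated H3K27, hold HOX genes silent where they are not used, and Trithorax-group proteins, among them SWI/SNF subunits, work in the opposite direction. HOX proteins bind DNA together with TALE-class homeodomain partners of the PBX, MEIS and PKNOX families.

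Each treatment had 1 library, so differences could not be checked against replicates and are given without p-values. After removal of repeated positions, DMSO kept 16598348 tags and MAK683 kept 18265284. A peak height is the number of tags over the summit per 1000000 tags (RPM), so that 1 tag stood for 0.0602 RPM in DMSO and 0.0547 RPM in MAK683, and the lowest peak in either library held 6 tags. Intervals of heights and of single log2 ratios cover 95% counting error and nothing else, since reads were counted with no molecular identifiers and need not be separate molecules. Intervals of medians and of shares of peaks are taken over genes, regions or peaks, which are not replicates. No peak was called in either library across SMARCB1 on chromosome 22, nor across its neighbours DERL3, MMP11 and SLC2A11. Heights at promoters were lower in MAK683 genome-wide, with a median log2 ratio of −0.42 over 16247 protein-coding promoters with a peak, and the changes below are set beside that shift.

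Sequences at or near the sites described in the following results are given first, in GRCh37 coordinates, written 5′ to 3′. The HOXB1 stretch is the 250 bases before the TSS on the minus strand (chr17:46608374-46608623), shown because HOXB1 was the member whose promoter peak was called in DMSO alone. The printed bases lie between the TSS and that peak, whose nearest edge was 656 bp from the TSS, and under no peak of either library. Their capitals mark a match to TGATNNAT, the letters searched for joint PBX and HOX binding, a pairing known from the autoregulation of HOXB1.
HOXB1 promoter: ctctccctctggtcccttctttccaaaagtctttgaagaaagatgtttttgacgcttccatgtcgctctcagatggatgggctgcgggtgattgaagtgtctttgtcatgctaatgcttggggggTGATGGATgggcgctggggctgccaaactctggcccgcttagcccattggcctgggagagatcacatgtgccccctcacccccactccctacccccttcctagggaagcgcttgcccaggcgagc
The CTCF stretch (chr17:46668290-46668409, plus strand) lay in an intron of HOXB3 and HOXB-AS3. CTCF is the insulator protein that divides HOX clusters into domains. The stretch is shown because it held the only match to the CTCF core letters in the 300 bases searched around each cluster summit. Its capitals mark the match.
CTCF core match: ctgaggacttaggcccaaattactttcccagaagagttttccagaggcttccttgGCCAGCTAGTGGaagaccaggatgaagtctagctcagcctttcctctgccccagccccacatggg
The next stretches are the 200 bases around the DMSO summits of a pair of tall peaks outside exons that were called in both libraries. They lay between HOXB2 and HOXB3 in an intron of HOXB-AS1 (chr17:46624197-46624396) and in an intron of LINC02086 between HOXB9 and HOXB13 (chr17:46755843-46756042), both on the plus strand, and held no match to the searched motifs.
HOXB-AS1 intron: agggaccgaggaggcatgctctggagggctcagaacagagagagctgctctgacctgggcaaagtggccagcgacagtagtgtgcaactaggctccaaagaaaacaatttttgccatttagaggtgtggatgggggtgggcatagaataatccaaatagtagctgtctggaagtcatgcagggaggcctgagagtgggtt
LINC02086 intron: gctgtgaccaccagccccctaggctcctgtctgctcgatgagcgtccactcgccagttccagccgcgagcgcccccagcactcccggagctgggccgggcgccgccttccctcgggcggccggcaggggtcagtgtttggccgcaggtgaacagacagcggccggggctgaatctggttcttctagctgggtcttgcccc
The cluster also encodes miR-10a and miR-196a-1, microRNAs known to act on HOX messenger RNAs. Their mature 5p sequences (chr17:46657266-46657288 and chr17:46709894-46709915, minus strand, from RefSeq and matched letter for letter to GRCh37) carry the seed, bases 2 to 8, in capitals.
hsa-miR-10a-5p: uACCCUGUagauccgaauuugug
hsa-miR-196a-5p: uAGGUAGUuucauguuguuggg

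Promoter peaks were lower in the MAK683 library at all 10 HOXB genes. A promoter peak was the tallest peak within 3 kb of the TSS of the canonical transcript. All 10 genes had one in DMSO, from 0.542 RPM at HOXB1 to 1.57 RPM at HOXB2 and HOXB13, and 9 had one in MAK683, from 0.493 RPM at HOXB4 to 0.876 RPM at HOXB2, HOXB7 and HOXB8. The medians were 1.27 RPM in DMSO and 0.712 RPM in MAK683, and the median log2 ratio was −0.78 (−0.88 to −0.61), against −0.42 for all promoters. A lower height in MAK683 was seen at 78.3% of all promoters with a peak, so the direction alone was common. At 0 of the 10 genes was the change 2-fold or more in either direction, where 5.75% of all promoters were at least 2-fold lower and 3.37% at least 2-fold higher. Because some genes share a peak, the 10 promoters rested on 8 distinct peaks in DMSO and 7 in MAK683.

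**Figure D1:**
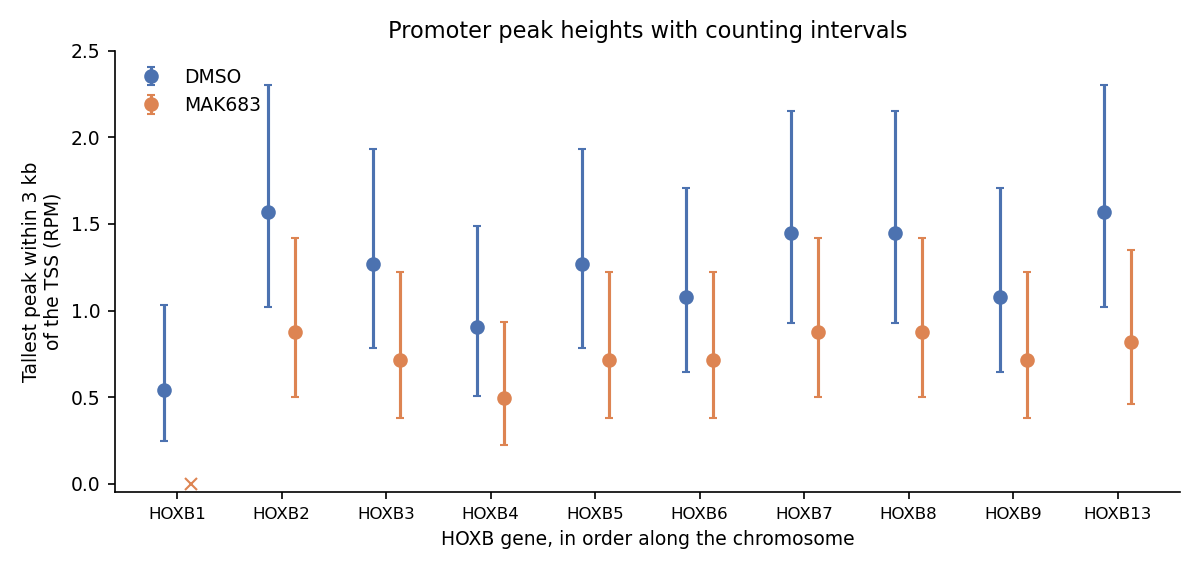
Height of the tallest peak within 3 kb of each HOXB start site (RPM, vertical axis) for the DMSO and MAK683 libraries, 1 library each. Bars are 95% Clopper-Pearson counting intervals, and the cross at 0 marks HOXB1, where no MAK683 peak was called. DMSO points sit between 0.542 and 1.57 RPM and every MAK683 point lies below the DMSO point of its gene, with overlapping bars.

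The anterior genes HOXB1 to HOXB4 lie at the end of the cluster that retinoic acid opens first in embryos. HOXB1 (ENSG00000120094, chr17:46605888-46608373, minus strand like all members), which specifies a segment of the hindbrain, had 1 low DMSO peak of 9 tags, or 0.542 RPM (0.248 to 1.03), 816 bp upstream of its TSS in intergenic DNA. No peak was called there in MAK683. With the missing peak set at the height floor of 0.361 RPM, the log2 ratio was −0.58, and 2.29% of all promoters with a peak had one in DMSO alone. The 9 tags of this site lay close to the lowest called height of 6 tags.

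HOXB2 (ENSG00000173917, chr17:46618256-46622471), which acts beside HOXB1 in the hindbrain, had its tallest peak 1826 bp upstream of the TSS, in the HOXB-AS1 intron shown above. That peak held 26 tags, or 1.57 RPM (1.02 to 2.30), in DMSO and 16 tags, or 0.876 RPM (0.501 to 1.42), in MAK683. The log2 ratio was −0.84 (−1.74 to 0.06). At the start site itself, a DMSO peak of 14 tags with its summit 83 bp upstream overlapped no MAK683 peak, the nearest edge lying 244 bp away.

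HOXB3 (ENSG00000120093, chr17:46626232-46682274), a gene of the hindbrain and pharyngeal arches, is the longest member and has 8 annotated start sites, of which the canonical one at position 46667603 was used. A DMSO peak of 16 tags, or 0.964 RPM (0.551 to 1.57), had its summit 65 bp from that TSS in an untranslated exon, and no MAK683 peak overlapped it. It was the tallest DMSO peak of the cluster without a MAK683 partner. The tallest peak in the HOXB3 window was the one in the HOXB5 coding exon described below.

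HOXB4 (ENSG00000182742, chr17:46652869-46655712), known for expanding blood stem cells when overexpressed, had a single DMSO peak of 2438 bp running over its TSS. The height was 15 tags, or 0.904 RPM (0.506 to 1.49), in DMSO with the summit 117 bp upstream, and 9 tags, or 0.493 RPM (0.225 to 0.935), in MAK683, a log2 ratio of −0.88 (−2.07 to 0.32). The HOXB4 start site stayed under a peak in both libraries. Upstream of it lies the miR-10a hairpin (chr17:46657200-46657309), which had 2 DMSO peaks within 3 kb, the nearest 533 bp away and the tallest with 15 tags, and 3 MAK683 peaks, the nearest 73 bp away and the tallest with 9 tags.

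The tallest peaks in the windows of the central genes HOXB5 to HOXB8 were also lower in MAK683. HOXB5 (ENSG00000120075, chr17:46668619-46671141), which acts in the neural crest of the gut and in lung, carried its tallest peak inside its own coding exon. It held 21 tags, or 1.27 RPM (0.783 to 1.93), in DMSO and 13 tags, or 0.712 RPM (0.379 to 1.22), in MAK683, a log2 ratio of −0.83 (−1.83 to 0.17). The TSS of HOXB5 lay outside a peak in both libraries, 101 bp from the nearest edge in DMSO and 123 bp in MAK683.

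HOXB6 (ENSG00000108511, chr17:46673113-46682354), active in trunk mesoderm and blood progenitors, had no peak near its start site, with the nearest edges 1524 bp away in DMSO and 1845 bp in MAK683. Within 3 kb the tallest peak held 18 tags, or 1.08 RPM (0.643 to 1.71), in DMSO and 13 tags, or 0.712 RPM (0.379 to 1.22), in MAK683, for a log2 ratio of −0.61 (−1.64 to 0.42). These were different sites. At the DMSO site itself, 2237 bp downstream of the TSS, the heights were 18 and 9 tags and the log2 ratio was −1.14 (−2.29 to 0.02), a larger difference than between the tallest peaks. At the MAK683 site, with its summit 3335 bp downstream, the direction was the opposite. The heights there were 10 tags in DMSO and 13 in MAK683, a log2 ratio of 0.24 (−0.95 to 1.43).

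HOXB7 (ENSG00000260027, chr17:46684594-46710934) and HOXB8 (ENSG00000120068, chr17:46688739-46692654), the latter known to block differentiation of myeloid progenitors, shared their tallest peak. It held 24 tags, or 1.45 RPM (0.926 to 2.15), in DMSO and 16 tags, or 0.876 RPM (0.501 to 1.42), in MAK683, a log2 ratio of −0.72 (−1.64 to 0.19). The HOXB7 start site was under a DMSO peak of 18 tags with its summit 30 bp away, and in MAK683 the nearest peak edge was 275 bp off. The HOXB8 TSS lay outside peaks in both libraries, by 781 bp in DMSO and 563 bp in MAK683. The summit of the shared peak was 3033 bp from the HOXB8 TSS in DMSO and 2249 bp in MAK683. Nearer this TSS the difference was smaller. The HOXB8 log2 ratio was −0.14 with a window of 1 kb and −0.31 with only summits in the window counted.

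HOXB9 and HOXB13, the posterior members, differed from each other in how much of the gene was open. HOXB9 (ENSG00000170689, chr17:46698518-46703720), which shapes the rib cage, had a peak downstream of its TSS, with the summit 994 bp away in DMSO and 629 bp in MAK683. The peak held 18 tags, or 1.08 RPM (0.643 to 1.71), in DMSO and 13 tags, or 0.712 RPM (0.379 to 1.22), in MAK683. The log2 ratio was −0.61 (−1.64 to 0.42). The HOXB9 start site lay 79 bp from the DMSO peak and 236 bp from the MAK683 peak. HOXB13 (ENSG00000159184, chr17:46802125-46806112), a factor of the prostate and hindgut, had one DMSO peak of 6774 bp that ran over the whole gene with its summit on the TSS. Only 0.199% of all DMSO peaks were that long. Its height was 26 tags, or 1.57 RPM (1.02 to 2.30), in DMSO and 15 tags, or 0.821 RPM (0.460 to 1.35), in MAK683, and the log2 ratio of −0.93 (−1.85 to −0.01) was the lowest of the members. In place of the single DMSO peak, 6 separate MAK683 peaks were called, the one over the TSS being 2362 bp long with its summit 415 bp upstream.

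HOXB13 was 1 of 9 members with a peak in both libraries and the only one whose whole counting interval lay below 0, which was the case at 20.6% of all promoters with a peak in both. For the other members with a peak in both libraries the difference was within the counting error of a single gene at this depth. HOXB1, without a MAK683 peak, had no interval of its ratio. In the order of heights, DMSO ran from HOXB2 and HOXB13 through HOXB7 and HOXB8, HOXB3 and HOXB5, HOXB6 and HOXB9, and HOXB4 to HOXB1, and every neighbour in that order had overlapping intervals. In MAK683 the intervals of all 9 genes with a peak overlapped.

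Coverage of the start sites themselves was counted next. In DMSO the TSS itself lay under a peak at 5 of 10 HOXB genes, HOXB2, HOXB3, HOXB4, HOXB7 and HOXB13, and in MAK683 at HOXB4 and HOXB13. Of the 5, the 3 not under a MAK683 peak were HOXB2, HOXB3 and HOXB7, whose DMSO peaks held 14, 16 and 18 tags, while those over the start sites of HOXB4 and HOXB13 held 15 and 26. Over all coding genes 4.97% of the TSSs under a DMSO peak were not under a MAK683 peak, and on chromosome 17 the share was 8.89%. Among those under DMSO peaks of 14 to 26 tags, the range of the HOXB genes, the share was 7.53%. With 5 start sites the count of 3 is small, and what set it was not tested.

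Less of each promoter window was open as well. The share of the window of 3 kb on each side of the TSS that lay under peaks was lower in MAK683 at 10 of 10 HOXB genes, with a median of 42.4% in DMSO and 26.2% in MAK683. Fewer bases under peaks were found at 67.8% of all promoters with a peak, where the medians were 31.3% and 27.5%, and at 82.8% of those on chromosome 17, where they were 31.2% and 22.6%. HOXB2 fell from 63.5% to 29.8% and HOXB6 from 21.5% to 6.93%. At HOXB9 the shares were close, 24.1% and 20.7%. HOXB13 had the most open window in both libraries, with 71.3% in DMSO and 51.0% in MAK683.

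**Figure D2:**
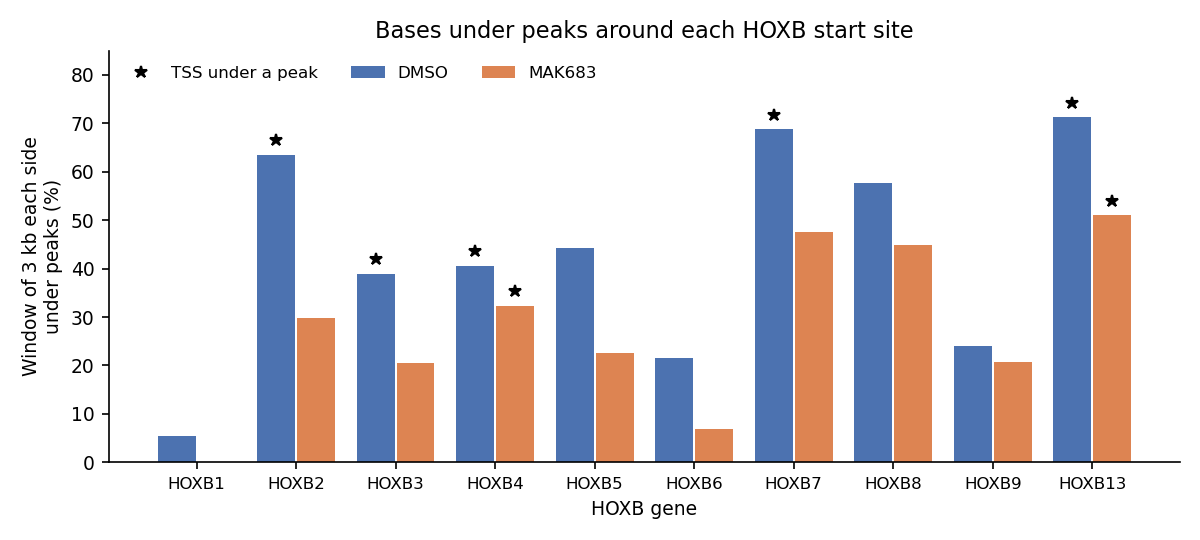
Share of the window of 3 kb on each side of each HOXB start site that lay under called peaks (%, vertical axis), for the DMSO and MAK683 libraries, with a star where the start site itself was under a peak. Every MAK683 bar is shorter than the DMSO bar of its gene, and stars stand over 5 DMSO bars and 2 MAK683 bars.

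Across the interval between the outermost members (chr17:46605888-46806112), the numbers of peaks were close, and the peaks were lower and shorter in MAK683, as they were over the genome. There were 55 peaks in DMSO and 52 in MAK683, a ratio of 0.945, where the whole genome had 1.41 times as many peaks in MAK683 and chromosome 17 had 0.864 times as many. The closeness held only with all peaks counted, since at a −log10 q minimum of 5 they numbered 39 in DMSO and 26 in MAK683. The median height was 0.783 RPM in DMSO and 0.575 RPM in MAK683, and the median length was 608 bp and 435 bp. Over the genome the median heights were 0.663 and 0.547 RPM and the median lengths 433 bp and 391 bp, and on chromosome 17 they were 0.663 and 0.547 RPM and 446 bp and 414 bp. Peaks of at least 1 RPM numbered 14 in DMSO and 1 in MAK683 in the cluster, 1379 and 732 on chromosome 17, and 24987 and 17893 over the genome. The bases under peaks went from 44488, or 22.2% of the interval, to 29633, or 14.8%, a ratio of 0.666 against 0.726 on chromosome 17 and 1.13 on all chromosomes. Covered length was thus lower in the cluster and on chromosome 17 and higher over the genome.

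The accessible DNA was packed around HOXB1 to HOXB9. The 97833 bp from HOXB1 to HOXB9 held 46 peaks in DMSO and 41 in MAK683 that covered 36.6% and 24.4% of it. The 98404 bp between HOXB9 and HOXB13 held 8 peak summits in DMSO and 7 in MAK683, with 4.81% and 3.04% under peaks. HOXB13 with 3 kb upstream was the densest stretch, at 75.4% and 57.6%, with 2 peaks in DMSO and 5 in MAK683. The peak density of the cluster, 27.5 per 100 kb in DMSO and 26.0 in MAK683, was far above the 7.41 and 6.41 of chromosome 17. A high density was not particular to HOXB. It was 41.1 and 37.3 in the HOXA cluster, 53.8 and 54.6 in HOXC, and 23.4 and 30.6 in HOXD.

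**Figure D3:**
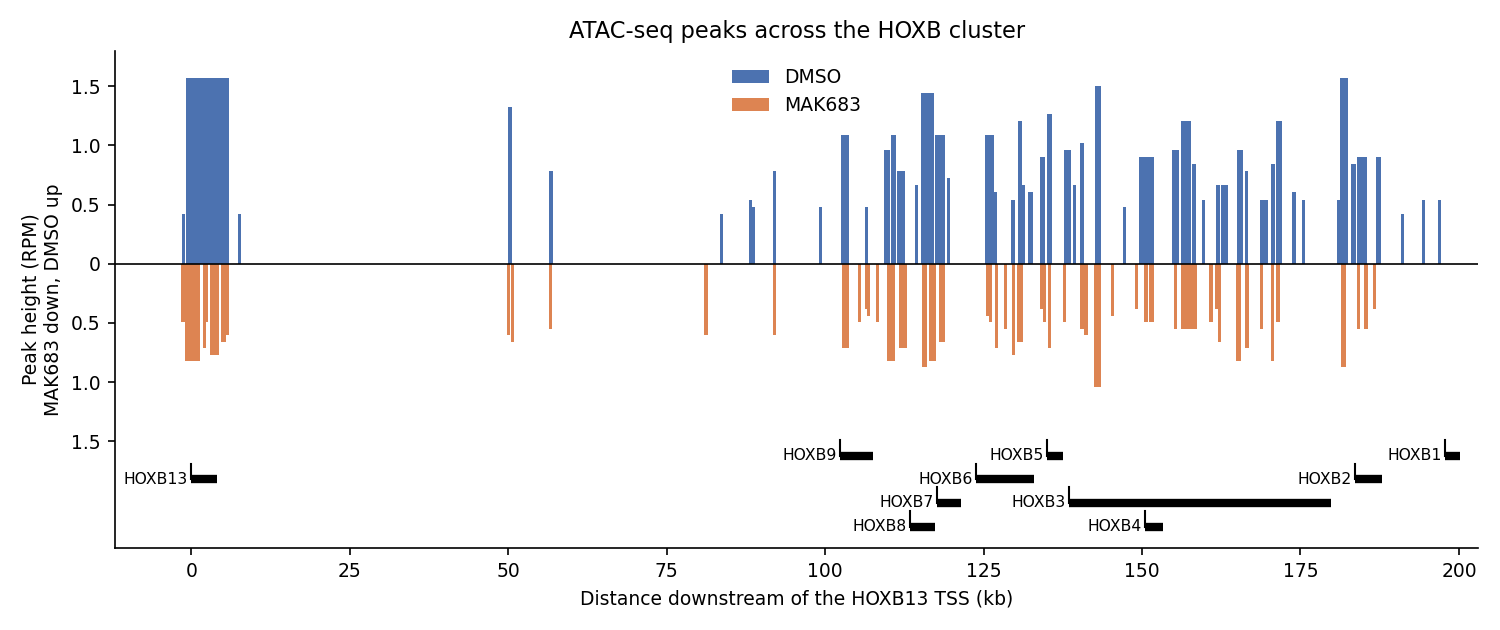
Peaks across the HOXB cluster, with DMSO heights drawn upward and MAK683 heights downward (RPM), against the distance downstream of the HOXB13 TSS (kb). Bars are as wide as the peaks, with a minimum width of 0.5 kb so that short peaks can be seen, and black bars below run from the TSS used, marked by a tick, to the end of each gene. DMSO bars are taller over most of the cluster, the gap between HOXB13 and HOXB9 is nearly empty in both, and the long DMSO peak at HOXB13 faces several MAK683 peaks.

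To compare the same sites, overlapping peaks of both libraries were merged, which gave 63 regions over the cluster and the TSS windows of its outermost genes. Of these, 30 had a peak in both libraries (47.6%, against 29.1% of all regions of the genome), 22 in DMSO alone (34.9%, against 25.1%) and 11 in MAK683 alone (17.5%, against 45.9%). On chromosome 17 the shares were 40.3%, 38.9% and 20.9%. Sites found in MAK683 alone were therefore scarce in the cluster beside the genome, and nearly as scarce on the rest of its chromosome. By peak, 34 of 56 DMSO peaks, or 60.7% (46.8% to 73.5%), overlapped a MAK683 peak, and 42 of 53 MAK683 peaks, or 79.2% (65.9% to 89.2%), overlapped a DMSO peak.

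The 30 regions with peaks in both had a median log2 ratio of −0.67 (−0.88 to −0.33), with 26 lower and 4 higher in MAK683. All such regions of the genome had −0.33, those in the same range of mean height had −0.29, those on chromosome 17 had −0.43, and the 118 within 1 Mb outside the interval had −0.44. The HOXB regions were richer in G and C than others, with a median GC content of 57.7% against 54.3%, and the genome-wide median ratio was −0.41 in the GC quartile that was highest and −0.29 to −0.31 in the others. The part of depth, GC content and chromosome in the lower heights was not tested.

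Over the genome, 8.27% of the regions called in both had an interval wholly below 0. In the cluster this held at 4 of the 30 regions, and at 0 of the 30 did the interval lie above 0. The largest difference was in an intron of HOXB3, HOXB-AS2 and HOXB-AS3 (chr17:46634090-46635029), with 20 tags or 1.20 RPM (0.736 to 1.86) in DMSO and 9 tags or 0.493 RPM (0.225 to 0.935) in MAK683, a log2 ratio of −1.29 (−2.43 to −0.16). A second HOXB3 intron region (chr17:46647431-46649903) went from 20 to 10 tags, with a log2 ratio of −1.14 (−2.23 to −0.04). The LINC02086 intron site printed above, 50169 bp from the nearest member TSS, went from 22 tags or 1.33 RPM (0.831 to 2.01) to 11 tags or 0.602 RPM (0.301 to 1.08), with a log2 ratio of −1.14 (−2.18 to −0.09). The other was the region over HOXB13. These regions were picked out by their counts among 30, so their ratios are descriptions.

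At the 4 regions that were higher in MAK683 the intervals all spanned 0. The clearest lay in introns of HOXB3, HOXB6 and HOXB-AS3 (chr17:46676116-46676701), with 9 tags in DMSO and 14 in MAK683, a log2 ratio of 0.50 (−0.71 to 1.71). The others had log2 ratios of 0.24, 0.22 and 0.01. Of the 11 peaks found in MAK683 alone, the tallest lay in an intron of LINC02086 (chr17:46755328-46755541) with 12 tags, or 0.657 RPM (0.339 to 1.15). It was followed by 11 tags each in an intron of HOXB3 and HOXB-AS3 and in another LINC02086 intron. Of the 22 found in DMSO alone, the 3 tallest were the HOXB3 and HOXB2 start-site peaks named above, with 16 and 14 tags, and one of 15 tags in a HOXB2 exon, 3714 bp downstream of the TSS (chr17:46618339-46619259), with 0.904 RPM (0.506 to 1.49).

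**Figure D4:**
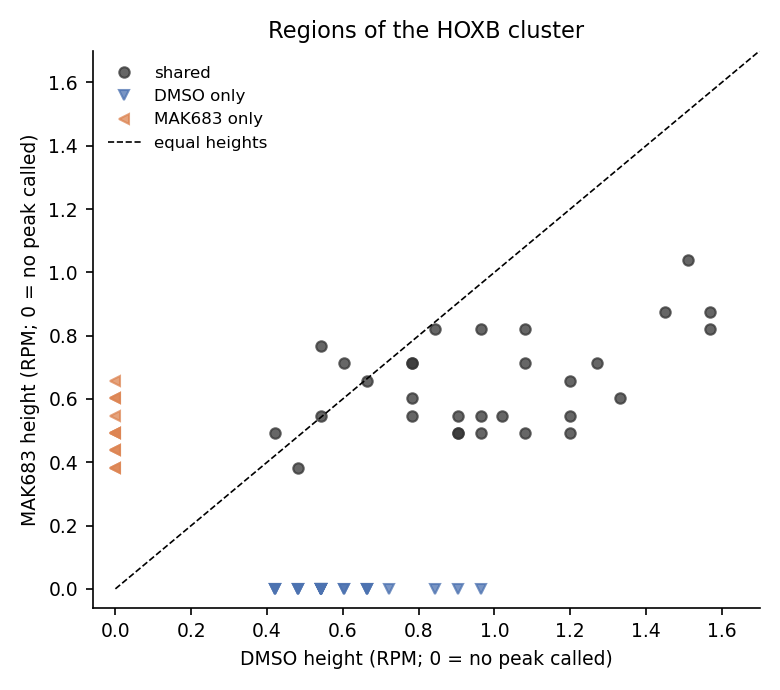
Height of each of the 63 regions of the HOXB cluster in DMSO (horizontal axis, RPM) and MAK683 (vertical axis, RPM), with 0 where no peak was called and a dashed line at equal heights. Of the 30 regions called in both libraries, 26 lie below the line, and 22 and 11 regions lie on the axes of DMSO and MAK683 alone.

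The noncoding and other genes inside the cluster largely shared peaks with the HOXB genes. Of 14 such genes, 11 had a promoter peak in DMSO and 10 in MAK683, and 9 were lower and 2 higher in MAK683, with a median log2 ratio of −0.61. The antisense transcripts HOXB-AS1 and HOXB-AS3 had a ratio of −0.84, HOXB-AS4 of −0.61 and HOXB-AS2 of −0.55. PRAC1 and PRAC2, genes of prostate and hindgut that lie beside HOXB13, both went from 26 tags or 1.57 RPM to 14 tags or 0.766 RPM, a log2 ratio of −1.03 (−1.97 to −0.09), on the same long DMSO peak. MIR3185 had −0.93. MIR196A1, host of the miR-196a sequence above, had a single DMSO peak of 8 tags 2878 bp away and no MAK683 peak. LINC03057 and LINC02086, which start close together in the gap, had 7 tags in DMSO and 11 in MAK683, a log2 ratio of 0.51 (−0.85 to 1.88). These heights came from different sites, neither with a peak in the other library (chr17:46722342-46722593 in DMSO and chr17:46724801-46725026 in MAK683).

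Genes beside the cluster and elsewhere on the chromosome were also lower. The 32 other coding genes with a promoter peak and a TSS inside the cluster or within 1 Mb of it included PRAC1 and PRAC2. Their median log2 ratio was −0.62 (−0.84 to −0.40), with all 32 lower in MAK683. The 956 coding genes of chromosome 17 with a peak had −0.53 (−0.55 to −0.49), with 87.8% lower. On the HOXB1 side, SNX11 went from 36 to 24 tags, a log2 ratio of −0.72 (−1.47 to 0.02), and SKAP1 had no promoter peak. On the HOXB13 side, TTLL6 went from 28 to 22 tags, a log2 ratio of −0.49 (−1.29 to 0.32), and CALCOCO2 from 32 to 16 tags, a log2 ratio of −1.14 with its whole interval below 0. The HOXB median was −0.78, beside −0.62 for these 32 genes, of which PRAC1 and PRAC2 shared the long DMSO peak of HOXB13. Genes of 1 library per treatment are not replicates and some share a peak, so a difference between the HOXB genes and their surroundings was not tested.

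Beside the other HOX clusters, the HOXB promoters were lower than those of HOXA and HOXC in both libraries. The median height was 1.27 RPM in DMSO and 0.712 RPM in MAK683 in HOXB, 2.17 and 1.42 RPM in HOXA, and 1.99 and 1.31 RPM in HOXC. In HOXD it was 0.964 RPM in DMSO, below that of HOXB, and 1.18 RPM in MAK683, above it. In HOXA, 11 of 11 genes were lower in MAK683 with a median log2 ratio of −0.61 (−0.92 to −0.38), and in HOXC 9 of 9 were lower with −0.65 (−0.79 to −0.54). Single genes ranged from −1.03 to −0.35 in HOXA and from −0.85 to −0.24 in HOXC. HOXD stood apart, with 4 genes lower and 3 higher of 7 with a peak and a range from −1.32 to 0.97. The highest was HOXD13, with 13 tags in DMSO and 28 in MAK683. The lowest was HOXD10, with 15 tags in DMSO and no MAK683 peak, so that its ratio rests on the height floor. The length under peaks in MAK683 relative to DMSO was 0.691 in HOXA, 0.597 in HOXC and 1.24 in HOXD, beside 0.666 in HOXB. With 1 library each, whether the clusters differ was not tested.

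The TALE partners of HOX proteins were spread around the genome-wide median. Of 9 genes, 8 were lower and 1 higher in MAK683, with a median log2 ratio of −0.39. MEIS1, which forms complexes with HOX and PBX proteins in leukemia, was the exception, with 19 tags or 1.14 RPM in DMSO and 39 tags or 2.14 RPM in MAK683, a log2 ratio of 0.90 (0.11 to 1.69). PBX3 had the lowest ratio, from 51 to 34 tags and −0.72 (−1.35 to −0.10). All 9 start sites were under a DMSO peak and 7 under a MAK683 peak.

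**Figure D5:**
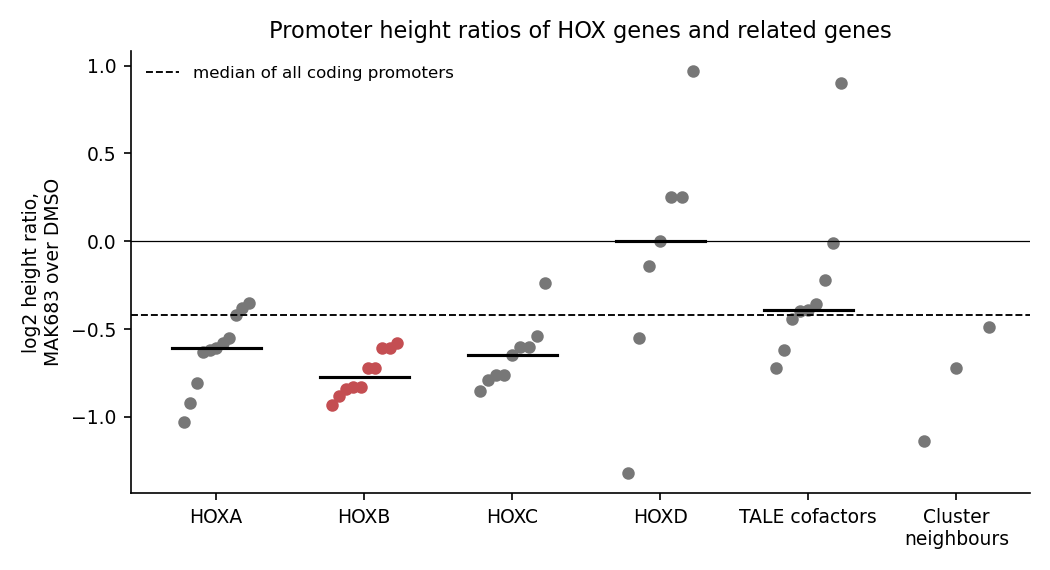
log2 ratio of promoter height, MAK683 over DMSO (vertical axis), for each gene with a promoter peak in the 4 HOX clusters, the TALE cofactors and the coding genes next to the HOXB cluster, 1 point per gene. Short black lines are medians of groups with over 3 genes and the dashed line is the median of all coding promoters, −0.42. HOXB points lie between −0.93 and −0.58, all below the dashed line, while HOXD points spread on both sides of 0.

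Sequence under the HOXB peaks was examined in 300 bases around each summit. The median GC content was 54.7% in the DMSO peaks of the cluster and 57.0% in its MAK683 peaks, against 51.3% and 50.3% of all peaks, and the observed over expected CpG ratio was 0.316 and 0.346 against 0.245 and 0.211. Motifs were searched on both strands by exact letters. The PBX and HOX letters TGATNNAT were found at 4 DMSO peaks and 3 MAK683 peaks, or 7.14% and 5.66%, against 8.13% and 9.22% of all peaks. At the HOXB7 start site, the DMSO peak of 18 tags held such matches 40 bp and 129 bp from the TSS, and at HOXB2 the DMSO peak of 14 tags held one 30 bp from the TSS. Both start sites were outside MAK683 peaks. The 3 MAK683 peaks with a match held 12, 15 and 10 tags. Their matches lay 798 bp from the HOXB7 TSS, 14648 bp from that of HOXB4 and 14900 bp from that of HOXB2. The last of these also lay in the 300 bases around a DMSO summit. The search did not extend to the rest of each peak, so a match outside those bases can still lie under a peak.

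The letters for the CTCF core, CCA and AG and GGC with 2 free bases after CCA and after AG, were found at 1 peak of each library (1.79% and 1.89%, against 5.90% and 4.49% of all peaks). It was the same site, the sequence printed above, 742 bp from the HOXB3 TSS, and its region went from 16 tags or 0.964 RPM (0.551 to 1.57) in DMSO to 9 tags or 0.493 RPM (0.225 to 0.935) in MAK683, a log2 ratio of −0.97 (−2.15 to 0.21). TGANTCA, bound by AP-1, which can overlap TGATNNAT, was found at 5 DMSO peaks and 1 MAK683 peak (8.93% and 1.89%, against 8.08% and 8.66%). The letters for the retinoic acid receptor, AGGTCA repeated in the same direction with 5 free bases between, were found at 0 peaks of the cluster in either library, and at 0.0123% of all DMSO and 0.00807% of all MAK683 peaks. In a RefSeq promoter table of GRCh38.p14, 1 of the 10 members, HOXB1, had an entry, and the match in it is the one in capitals above. Over the 35116 promoters of that table, 6.47% held TGATNNAT, 2.02% the CTCF letters and 6.57% the AP-1 letters. A match is a run of letters and no evidence that the factor was bound.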

How the data were processed

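ATAC-seq was analysed from peak tables of 1 DMSO and 1 MAK683 library of G401 cells. Per the study's methods and the submitters' processing notes, the authors trimmed reads and used Bowtie2 for alignment to hg19. MACS 2.1.1.20160309 called the peaks of each library separately per the file headers, whereas the notes list MACS2 2.1.0 and 2.2.7.1. Its settings were a tag shift of -100 bp, an extension to 200 bp, a q-value cutoff of 0.05, 1 tag kept per position, no control and no local background, so regional differences in coverage were not corrected. Both ends of a pair were read as single tags.

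The deposited pileup is a signal, the whole number of tags over a summit, with no scaling by depth. Fold enrichment was deposited as a ratio over the genome-wide background. The −log10 p-value and −log10 q-value columns, also deposited, depend on depth and served only as filters.

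Heights were divided by the tags after filtering (16598348 and 18265284, of 23901891 and 26692938 in all) and given per 1000000 tags. TSSs were those of Ensembl canonical transcripts in GENCODE 44 lifted to GRCh37, and chromosomes 1 to 22, X and Y were used. A promoter without a peak in 1 library took a floor of 0.361 RPM, the higher of the 2 minimum peak heights. Peaks overlapping by at least 1 bp were merged into regions. Heights have 95% Clopper-Pearson intervals, log2 ratios Poisson intervals by a normal approximation, and medians order-statistic intervals.

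The members, gene lists and motifs were chosen with earlier results of these data known. The genes named were the 10 members, the other genes inside the cluster, the first 2 coding genes on each side, the TALE cofactors and the other HOX genes as counts. The peaks named were regions of at least 1.5 RPM and the 3 tallest peaks of each library, overall and without a partner. One of these sites is not reported here. Other sites, such as regions whose interval lay below 0 or that were higher in MAK683, and the single genes HOXD13, MEIS1 and PBX3, were singled out after their values were seen. The interval code was tested on simulated data. Python 3.11.15, numpy 2.4.6, pandas 2.3.3, scipy 1.17.1 and matplotlib 3.10.9 were used.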

Additional observations from a re-analysis of the deposited data

How the results depend on the processing

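Over 12 alternatives and 22 results, 164 of 177 values were classed as the same, 13 as moved and 0 as reversed. Values classed as the same need not be equal. They included a HOXB8 log2 ratio of −0.14 with a window of 1 kb, against −0.72. They also included 39 DMSO peaks between the outermost members at a −log10 q minimum of 5, against 55. The log2 ratio of single members was below 0 in 94 of 96 values, the exceptions being 0.00 for HOXB1 with only peaks of at least 0.5 RPM and 0.00 for HOXB4 with only peaks of a −log10 q of at least 10. The member median ranged from −0.83 to −0.49 over 10 alternatives. Between the outermost members, with only peaks of a −log10 q of at least 10, there were 23 DMSO and 3 MAK683 peaks, 2815 bp under MAK683 peaks, 3 shared regions, 3 members with a MAK683 peak and a median member log2 ratio of −0.49 that rests on a higher height floor. At a −log10 q minimum of 5 there were 39 DMSO peaks and 26 MAK683 peaks, the latter over 18392 bp and 16 shared regions. With only peaks of at least 0.5 RPM, an alternative chosen after seeing the data, 48 DMSO and 34 MAK683 peaks were left. Counting a peak only where its summit lay in the window put 1 member at least 2-fold lower, against 0. Shared regions numbered 19 when at least 50% of each peak had to overlap and 19 when summits had to lie at most 150 bp apart. No paired analysis was possible because each group had 1 library, and for the same reason no replicate could be left out. Depth limits single genes: member peaks held 9 to 26 tags.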

Other observations

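The stretch upstream of HOXB13, 30483 bp up to TTLL6, was more open than the body of the cluster. It held 13 DMSO and 15 MAK683 peaks that covered 48.0% and 27.2% of it, a ratio of 0.566, and its tallest peaks had 28 tags, or 1.69 RPM, in DMSO and 19 tags, or 1.04 RPM, in MAK683. Its covered length thus fell further than the 0.666 of the HOXB interval, though the number of peaks was slightly higher in MAK683.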
